A study of Mus musculus with 10 samples.

Results

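Interferon-induced genes were examined in mouse T helper cells cultured with or without an antibody that neutralises interferon gamma. The set held 39 genes chosen by name, out of 22180 genes with a probe set that carries a single gene symbol. It comprised 5 transcription factors, 12 GTPases, 6 genes of the immunoproteasome and antigen processing, 14 genes best known as type I interferon targets, and the chemokine Cxcl10 with the enzyme Ido1. Each of the 39 was measured, and Irf8 and Tapbp, which had several probe sets, are given by the brightest on average.

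Expression was measured on 10 arrays, 1 for each sample, in CD4-positive spleen lymphocytes of wild-type female Balb/c mice aged 10 to 14 weeks. Th17 cultures (n = 4) were given TGF-beta (5 ng/ml) together with IL-6 (20 ng/ml) and IL-23 (10 ng/ml), and anti-interferon gamma at 10 µg/ml. Th2 cultures (n = 3) were given IL-4 at 100 ng/ml and the same amount of anti-interferon gamma. Th0 cultures (n = 3) received neither cytokine nor that antibody, and every culture in the 3 groups was stimulated with anti-CD3 at 4 µg/ml and anti-CD28 at 30 ng/ml. All cultures had a medium change at 72 h. The antibody and the added cytokines come together in each polarised group, so their shares in a difference from Th0 cannot be told apart. The titles call the replicates biological but name no animals, so a p-value here reflects only how far these samples spread.

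Interferons act through routes that share components. Interferon gamma, made by activated T cells themselves, signals through its own receptor, acts at GAS elements in promoters and switches on Irf1, the GTPases that attack intracellular pathogens, and the antigen-processing machinery. Type I interferons signal through another receptor to STAT2 and IRF9, act at the interferon-stimulated response element, and switch on antiviral genes such as the Ifit, Oas and Mx families. Many genes answer to both, so a gene's place in a group here is its best-known role and not a measured one.

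Sequence near the start sites was compared for 2 patterns tied to these routes. Promoters from RefSeq (build GRCm38.p6) were matched for 25 of the 39 genes and searched in the 250 bases before the start site on both strands. The first was a GAAA repeat (GAAA, any 2 bases, GAAA), the core of the interferon-stimulated response element, and the other was TTCNNNGAA, the core of a GAS element, which reads the same on both strands. The GAAA repeat occurred in 12 of the 25 promoters, against 3.4% of 16990 genes on the array with a promoter, and TTCNNNGAA in 8 of 25, against 7.82%. All 6 GTPase promoters matched (Gbp3, Gbp5, Gbp7, Igtp, Irgm1 and Irgm2) held the GAAA repeat and 4 of them also held TTCNNNGAA. Among type I genes 4 of 8 held the GAAA repeat and 1 of 8 held TTCNNNGAA. Of the 5 antigen-processing promoters none held the GAAA repeat and 1, that of Psmb8, held TTCNNNGAA. Such a match describes letters and does not show that a factor binds. Usp18, Ido1, Gbp4, Gbp6, Gbp8, Gbp9, Gbp10, Rtp4, Parp14, Mx1, Oas2, Zbp1, Nlrc5 and Iigp1 had no entry.

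The last 120 bases before the start site are printed 5′ to 3′ for a factor, 3 GTPases, an immunoproteasome subunit and a type I gene, with every match to either pattern in capitals. They are Irf1 (chr11:53769894-53770013, plus strand), Gbp7 (chr3:142530216-142530335, plus), Igtp (chr11:58199436-58199555, plus), Irgm2 (chr11:58214857-58214976, plus), Psmb8 (chr17:34198075-34198194, plus) and Isg15 (chr4:156200819-156200938, minus).
Irf1: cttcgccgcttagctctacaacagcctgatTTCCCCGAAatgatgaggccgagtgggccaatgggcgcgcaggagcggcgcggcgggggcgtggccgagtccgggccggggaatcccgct
Gbp7: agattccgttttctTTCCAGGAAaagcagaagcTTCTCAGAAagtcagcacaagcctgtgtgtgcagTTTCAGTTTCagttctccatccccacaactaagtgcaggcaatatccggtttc
Igtp: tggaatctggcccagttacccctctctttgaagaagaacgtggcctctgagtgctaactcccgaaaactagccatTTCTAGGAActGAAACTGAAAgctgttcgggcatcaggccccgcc
Irgm2: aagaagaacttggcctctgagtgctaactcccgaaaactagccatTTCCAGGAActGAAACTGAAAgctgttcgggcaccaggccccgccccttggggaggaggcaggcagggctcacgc
Psmb8: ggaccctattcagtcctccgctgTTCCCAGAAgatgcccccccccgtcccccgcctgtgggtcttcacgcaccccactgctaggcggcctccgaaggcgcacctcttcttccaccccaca
Isg15: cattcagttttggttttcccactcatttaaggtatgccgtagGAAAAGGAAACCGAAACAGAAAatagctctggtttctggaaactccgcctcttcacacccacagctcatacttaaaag
Irf1 shows a single TTCNNNGAA match 90 bases before the start, and Gbp7 holds 2 of them and 1 GAAA repeat on the opposite strand. Igtp and Irgm2, both on chromosome 11, share a run of 38 identical bases, and in both the 2 patterns start 11 bases apart without overlapping. Isg15 holds 3 overlapping matches to the GAAA repeat and no TTCNNNGAA.

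A set of 3 arrays stood apart before any comparison. On the first principal component of all genes, which held 35.8% of the variance, Th17 replicate 4 lay at 37.5 and Th2 replicates 2 and 3 at 38.8 and 55.8, while the other 7 arrays lay at -0.96 or below. The 8 measured of 10 listed T cell markers, Cd3e and Cd4 among them, averaged 8.38 to 9.42 on all 10 arrays (log2), which bears out T cells. Most of these markers are shared by CD4 and CD8 T cells, so their average does not show how pure the CD4 cells were. Cd4 itself ran from 7.09 to 8.76, Cd8a from 3.05 to 5.63 and Cd8b1 from 4.52 to 7.21. B cell markers (8 of 10 measured) averaged 3.48 to 4.68, 3.61 to 4.02 and 3.75 to 4.68 on Th17, Th2 and Th0 arrays. CD8 and natural killer cell markers (8 of 8) averaged 5.34 to 5.73, 4.82 to 4.87 and 5.08 to 5.76 in the same order of groups. These averages hide single markers, picked here after their values were seen. Ighm ran from 4.71 on Th17 replicate 4 to 10.41 on Th17 replicate 1, while Ms4a1 stayed between 2.61 and 3.23. Nkg7 ran from 7.21 to 9.55, while Ncr1 stayed between 3.42 and 4.36. Klrd1 was higher in Th17 than in Th0 cultures, by 2.29 (limma, adjusted p = 0.038). Proliferation genes (9 of 10) averaged 6.39 to 7.50, 6.31 to 8.05 and 7.48 to 7.97. Basophil and mast cell markers (8 of 8) averaged 5.58 and 5.65 on Th17 replicates 2 and 3 and 6.91 on Th0 replicate 1, and 3.15 to 4.24 on the other 7. Myeloid markers (9 of 10) averaged 2.85 to 3.25 outside Th17 replicate 1, which was at 4.13, and plasmacytoid dendritic cell markers 3.21 to 3.61 on all 10. On Th17 replicate 1 S100a8, S100a9 and Lyz2 were at 7.16, 6.52 and 5.43, and the other measured myeloid markers at 2.76 to 3.33. The part of these array differences in the results below was not tested, and in bulk samples fewer cells of a type cannot be told apart from less RNA per cell.

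None of the 39 genes passed the test in any of the 4 comparisons, and most lay lower in the cultures with anti-interferon gamma. With Th17 and Th2 weighted equally, 34 of the 39 genes were below and 5 above their Th0 mean, where 52.2% of all genes were below. The median difference of the 39 was -0.46 on the log2 scale, against -0.01 for all genes. limma called 0 of 39 at an adjusted p under 0.05 (0.00902% of all genes), and the lowest adjusted p among them was 0.876. At an unadjusted p under 0.05, 6 of the 39 were lower (Gbp9, Psmb8, Psmb9, Psmb10, Ifit2 and Cxcl10) and 0 higher, against 2.94% of all genes lower and 2.62% higher. Of the 24 members with a mean of 6 or more 23 were below Th0, where 53.8% of all such genes were.

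Other gene lists moved with the members. All 9 measured proliferation genes were below Th0 with the polarised groups weighted equally, by -1.24 to -0.65 and a median of -0.82, and 0 were called by limma (6 at an unadjusted p under 0.05). They averaged 6.57 on Th17 replicate 4 and 6.52 and 6.31 on Th2 replicates 2 and 3, the arrays lowest in the members, but also 6.39 on Th17 replicate 2, where the members were not low. T cell markers were lowest on the same 3 arrays, at 8.38, 8.51 and 8.51, and 7 of 8 were below Th0, by a median of -0.33. The part of either list in the members' differences was not tested.

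In Th2 cultures alone 35 of 39 genes were below the Th0 mean (52.3% of all genes), with a median of -0.59. Again 0 were called (0% of all genes), and 8 were lower and 0 higher at an unadjusted p under 0.05 (2.98% and 3.36% of all genes). In Th17 cultures 28 of 39 were below the Th0 mean (53.2% of all genes), with a median of -0.26. There 0 were called, against 0.104% of all genes, and Cxcl10 was the single gene lower at an unadjusted p under 0.05 and 0 were higher (2.67% and 2.5% of all genes). Among the 24 with a mean of 6 or more, 23 lay below Th0 in Th2 cultures and 20 in Th17 cultures, where 54.5% and 52% of such genes did. Both comparisons use the same 3 Th0 arrays.

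Single arrays moved these medians by more than 1.5 times. Without Th0 replicate 1 the median over the 39 genes was -0.69 with Th17 and Th2 weighted equally, -0.90 in Th2 and -0.42 in Th17 cultures. Without Th0 replicate 3 the same medians were -0.25, -0.38 and -0.10. In Th2 cultures the median was -0.88 without Th2 replicate 1 and -0.38 without Th2 replicate 3, and in Th17 cultures -0.10 without Th17 replicate 4 and -0.17 without Th17 replicate 1. Without Th17 replicate 4 and Th2 replicates 2 and 3 together, the equally weighted median was -0.10. Without Th17 replicates 2 and 3 and Th0 replicate 1, the arrays highest in basophil markers, it was -0.90, and in Th2 and Th17 cultures -0.90 and -0.87. The left-out Th17 arrays also had the highest means over the 39 genes in their group (6.54 and 6.63), and Th0 replicate 1 the lowest in its own (6.15). Leaving them out thus widens a difference from Th0 whatever their markers. With the replicate number of the sample descriptions as a block and all arrays kept, the median was -0.15 with the polarised groups weighted equally. All of these medians were below 0.

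**Figure D1:**
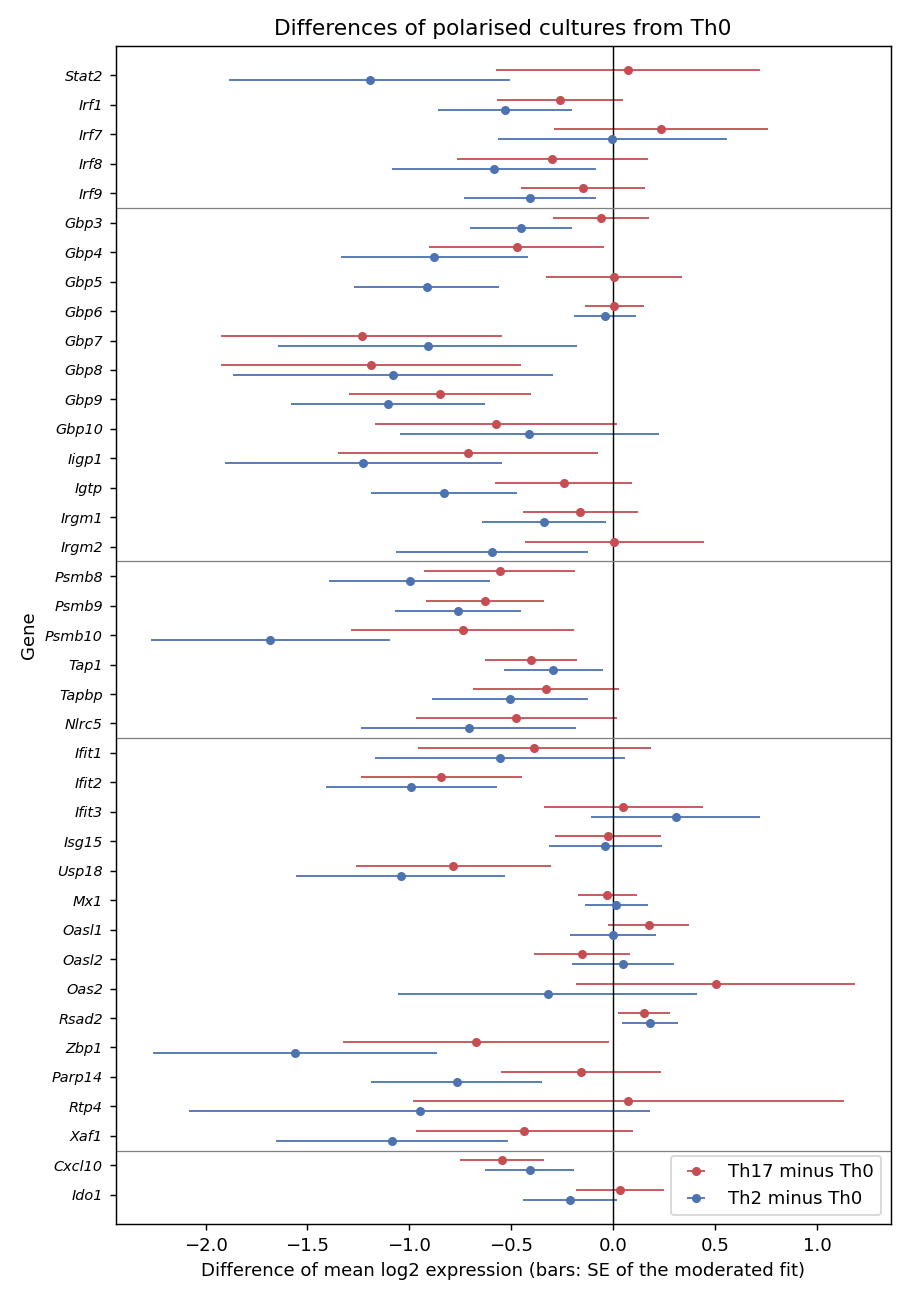
Difference of mean log2 expression from Th0 for each of the 39 genes (horizontal axis, log2 units, dots), in Th17 cultures (red) and Th2 cultures (blue), with bars of 1 SE of the moderated fit and lines between the gene groups. Most dots lie left of 0, from -1.23 to 0.50 in Th17 and from -1.68 to 0.31 in Th2 cultures, and many bars reach across 0.

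Beside these differences stood a wide spread within groups. The median within-group SD was 0.617 for the 39 genes, against 0.257 for all genes. Among genes with a mean of 6 or more it was 0.646 for 24 of the 39 and 0.328 for 3843 genes in all. The mean over the 39 genes was 6.03, 6.54, 6.63 and 5.48 on Th17 replicates 1 to 4, 6.46, 5.68 and 5.46 on Th2 replicates 1 to 3, and 6.15, 6.44 and 6.85 on Th0 replicates 1 to 3. Th17 replicate 4 and Th2 replicates 2 and 3, the arrays apart on the first component, were the lowest 3, and Th2 replicate 1 lay above Th0 replicates 1 and 2.

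**Figure D2:**
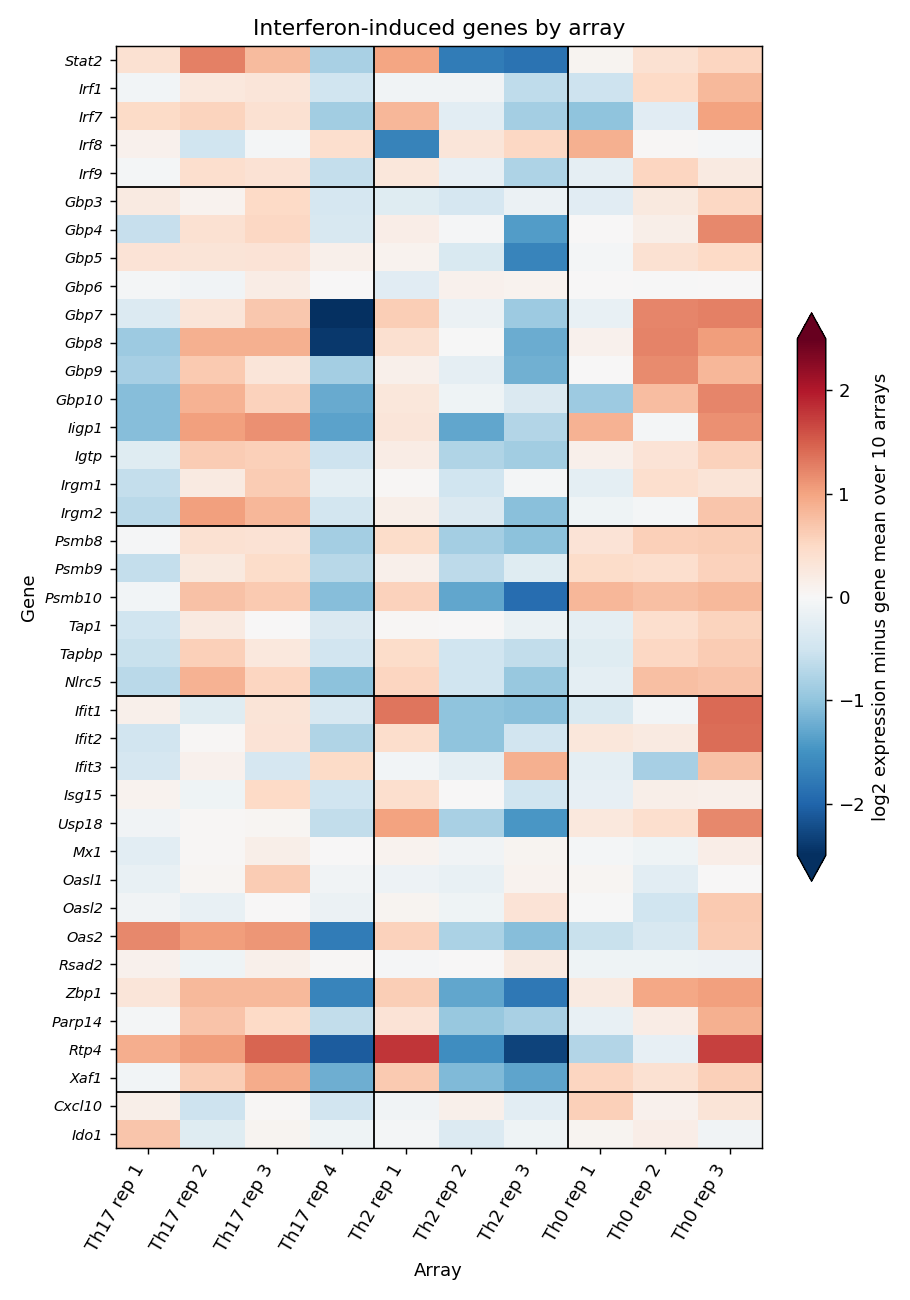
Log2 expression of the 39 genes (rows, with lines between the 5 gene groups) minus each gene's mean over the 10 arrays (columns, Th17, Th2 and Th0 replicates). Blue marks values below and red values above the gene's mean, and colours saturate at 2.5 either way; the columns of Th17 replicate 4 and Th2 replicates 2 and 3 are blue across most genes (29, 24 and 27 of 39 lie below all 3 Th0 arrays there).

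Of the 5 transcription factors 3 lay below Th0 in Th17 cultures and 5 in Th2 cultures, with medians of -0.15 and -0.53, and 0 were called. Stat2, a signalling factor of the type I route, was at 6.79, 7.66, 7.19 and 5.58 in Th17 cultures and 7.38, 4.67 and 4.57 in Th2 cultures, against 6.47, 6.79 and 6.94 in Th0 cultures. The Th0 range was undershot on Th17 replicate 4 and Th2 replicates 2 and 3, and Th17 replicates 2 and 3 and Th2 replicate 1 were above it. The difference of Stat2 from Th0 was 0.07 ± 0.65 (SE) in Th17 and -1.19 ± 0.69 in Th2 cultures (limma, adjusted p = 0.999 and 0.818).

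Irf1, the first-line factor induced by interferon gamma, was at 6.39, 6.72, 6.75 and 5.96 in Th17 cultures and 6.37, 6.36 and 5.82 in Th2 cultures, against 5.94, 6.95 and 7.26 in Th0 cultures. The groups overlapped, with Th0 replicate 1 as low as Th17 replicate 4. Irf1 differed by -0.26 ± 0.31 (SE) in Th17 and -0.53 ± 0.33 in Th2 cultures (limma, adjusted p = 0.999 and 0.826). Irf8, a factor also used by myeloid and B cells, was at 8.10, 7.50, 7.95 and 8.42 in Th17 cultures and 6.32, 8.29 and 8.51 in Th2 cultures, against 8.88, 8.04 and 7.96 in Th0 cultures. Its pattern was unlike that of the other factors: the arrays low in Stat2 were high in Irf8, and Th2 replicate 1 was the lowest of the 10. The differences were -0.30 ± 0.47 (SE) and -0.59 ± 0.50 (limma, adjusted p = 0.999 and 0.873). Irf7, which amplifies type I interferon production, and Irf9, the DNA-binding partner of STAT2, differed by 0.24 and -0.15 in Th17 cultures and by -0.0038 and -0.41 in Th2 cultures.

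All 12 GTPases lay below Th0 when the polarised groups were weighted equally, by a median of -0.51. The guanylate-binding proteins (Gbp) and the immunity-related GTPases (Iigp1, Igtp, Irgm1, Irgm2) attack the vacuoles of intracellular pathogens. All 12 were below Th0 in Th2 cultures and 9 of 12 in Th17 cultures, with medians of -0.85 and -0.36, and 0 were called in either. Members of the Gbp family are close in sequence, and whether a probe set also reads a relative was not tested.

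Gbp7 and Gbp8 had the widest differences among the GTPases in Th17 cultures. Gbp7 was at 6.65, 7.30, 7.66 and 4.48 in Th17 cultures and 7.61, 6.85 and 6.08 in Th2 cultures, against 6.81, 8.21 and 8.25 in Th0 cultures. Gbp8 was at 6.20, 7.999, 7.99 and 4.69 in Th17 cultures and 7.51, 7.11 and 5.87 in Th2 cultures, against 7.21, 8.35 and 8.16 in Th0 cultures. Both were lowest on Th17 replicate 4, and both overlapped Th0 through its replicate 1. The differences were -1.23 ± 0.69 and -1.19 ± 0.73 (SE) in Th17 and -0.91 ± 0.73 and -1.08 ± 0.78 in Th2 cultures (limma, adjusted p from 0.858 to 0.999).

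Gbp9 was at 6.24, 7.72, 7.38 and 6.23 in Th17 cultures and 7.20, 6.85 and 5.86 in Th2 cultures, against 7.07, 8.25 and 7.90 in Th0 cultures. Here 2 of 4 Th17 and 2 of 3 Th2 arrays lay below all Th0 arrays, and the differences were -0.85 ± 0.45 and -1.11 ± 0.48 (SE). Igtp, also called Irgm3, was at 9.25, 10.19, 10.15 and 9.03 in Th17 cultures and 9.73, 8.80 and 8.68 in Th2 cultures, against 9.69, 9.89 and 10.12 in Th0 cultures. Th17 replicates 2 and 3 lay above every Th0 array and replicates 1 and 4 below, so the mean difference of -0.24 ± 0.33 (SE) in Th17 cultures covers a split group. In Th2 cultures it differed by -0.83 ± 0.36 (limma, adjusted p = 0.777). Irgm2, with the shared promoter run shown above, differed by 0.0066 in Th17 and -0.59 in Th2 cultures. The other GTPases lay between -0.71 (Iigp1) and 0.0067 (Gbp6) in Th17 cultures and between -1.23 (Iigp1) and -0.04 (Gbp6) in Th2 cultures. Gbp4 and Gbp10 differed by -0.47 and -0.57 in Th17 and by -0.88 and -0.41 in Th2 cultures, and Gbp3 and Irgm1 by -0.06 and -0.16 in Th17 and -0.45 and -0.34 in Th2 cultures.

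Of the 5 gene groups, only the immunoproteasome and antigen-processing genes had all members (6) below Th0 in both Th17 and Th2 cultures. Their medians were -0.52 and -0.73. Related genes outside the set also lay mostly lower: of 13 constitutive proteasome genes, 13 in Th17 and 10 in Th2 cultures, by medians of -0.20 and -0.08. Of 9 other listed antigen-processing genes 8 and 7 did, by -0.10 and -0.04, as did 53.2% and 52.3% of all genes. Psmb8, Psmb9 and Psmb10 are the inducible catalytic subunits that replace Psmb5, Psmb6 and Psmb7 and alter which peptides the proteasome cuts. Psmb10 was at 8.14, 8.94, 8.87 and 7.16 in Th17 cultures and 8.79, 6.91 and 6.31 in Th2 cultures, against 9.05, 8.97 and 9.03 in Th0 cultures. It was the single gene of the 39 below every Th0 array on all 7 polarised arrays, as were 0.798% of all genes, though Th17 replicate 2 (8.94) and Th0 replicate 2 (8.97) nearly touched. It differed by -0.74 ± 0.55 (SE) in Th17 and -1.68 ± 0.59 in Th2 cultures (limma, adjusted p = 0.999 and 0.767).

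Psmb9 was at 8.46, 9.30, 9.53 and 8.37 in Th17 cultures and 9.19, 8.41 and 8.75 in Th2 cultures, against 9.52, 9.48 and 9.63 in Th0 cultures. Every Th2 array and all Th17 arrays but replicate 3 were below Th0, and the differences were -0.63 ± 0.29 and -0.76 ± 0.31 (SE, limma, adjusted p = 0.971 and 0.767). Psmb8 was at 8.51, 8.92, 8.90 and 7.70 in Th17 cultures and 8.99, 7.69 and 7.51 in Th2 cultures, against 8.89, 9.14 and 9.16 in Th0 cultures. It overlapped Th0 on 3 of the 7 polarised arrays, and differed by -0.56 ± 0.37 and -0.999 ± 0.40 (SE). In Th2 cultures Psmb9 and Psmb10 had no overlap with Th0 from below, as 3.94% of all genes did, and in Th17 cultures Psmb10 and Usp18 had none, as did 4.35%.

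The constitutive subunits, named here after their values were seen, varied less between arrays than their inducible counterparts. Psmb5 differed from Th0 by -0.33 in Th17 and -0.32 in Th2 cultures, Psmb6 by -0.27 and -0.13, and Psmb7 by -0.15 and 0.15. Their within-group SDs were 0.217, 0.114 and 0.131, and 0 of the 3 were called. Tap1, a chain of the peptide transporter, differed by -0.40 in Th17 and -0.29 in Th2 cultures, and its start site lies 226 bases from that of Psmb9 on the opposite strand. Tapbp, which bridges the transporter to class I molecules, differed by -0.33 and -0.50, and Nlrc5, the activator of class I genes, by -0.48 and -0.71.

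**Figure D3:**
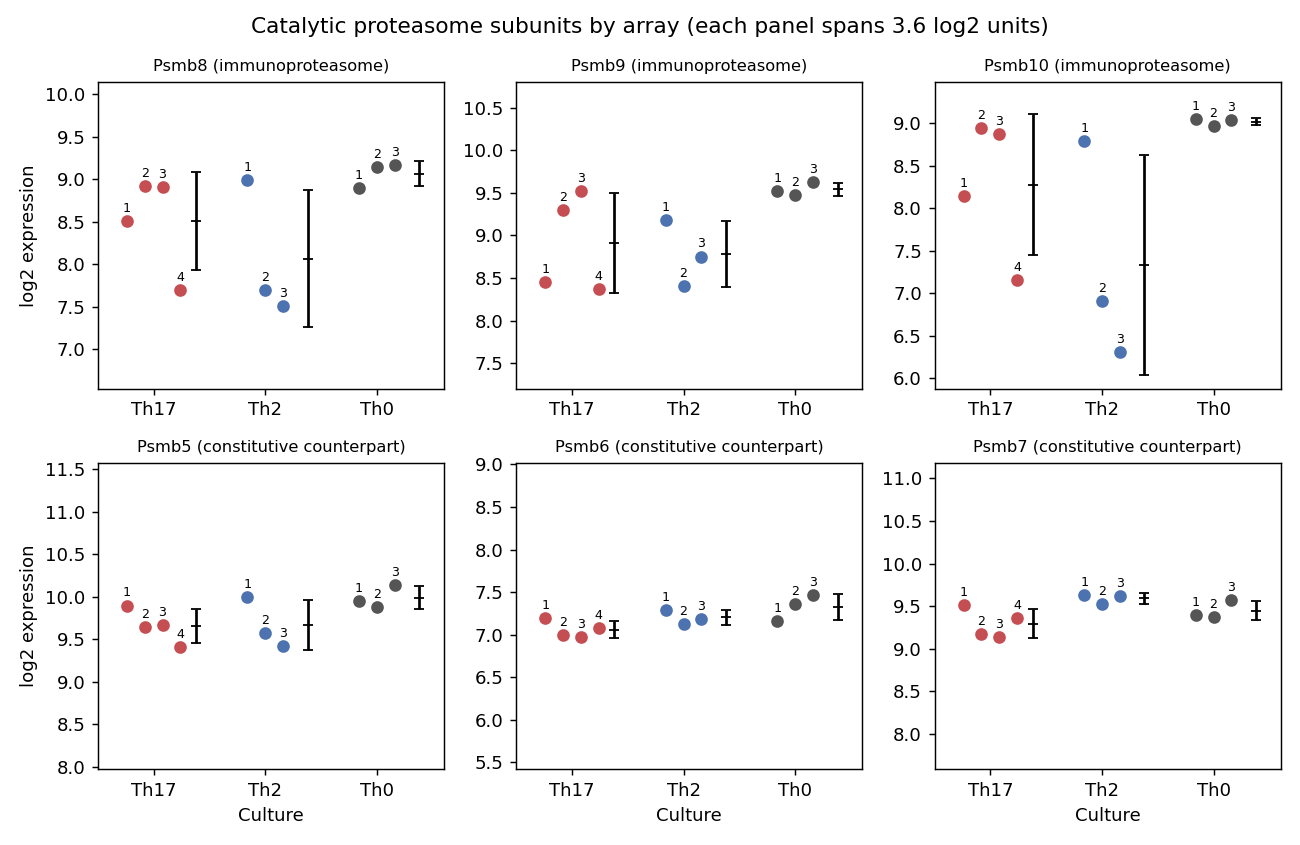
Log2 expression of the 3 inducible proteasome subunits (top) and their constitutive counterparts (bottom) on every array of Th17 (red), Th2 (blue) and Th0 cultures (grey), numbered by replicate, with the mean and SD in black. Every panel spans the same height; Psmb10 on Th17 replicate 4 and Th2 replicates 2 and 3 is at 7.16, 6.91 and 6.31, while the 3 Th0 values lie between 8.97 and 9.05.

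Type I interferon genes were divided, with 10 of 14 below Th0 in Th2 cultures and 9 of 14 in Th17 cultures, by medians of -0.44 and -0.09. Of the 7 with a mean of 5 or more, 6 lay below Th0 with the polarised groups weighted equally, by a median of -0.47 over the 7, and Ifit3 was above by 0.18. All 11 GTPases at that level were below, by -0.54, as were 53.7% of all such genes. Type I genes with a lower mean were mixed in that comparison. Ifit2, Oasl2, Isg15 and Mx1 differed by -0.92, -0.05, -0.03 and -0.007, and Oasl1, Oas2 and Rsad2 by 0.09, 0.09 and 0.17. Zbp1, a sensor of Z-form nucleic acid that triggers cell death, was at 8.64, 9.15, 9.15 and 6.69 in Th17 cultures and 8.96, 7.05 and 6.55 in Th2 cultures, against 8.57, 9.31 and 9.36 in Th0 cultures. Only the 3 arrays apart on the first component lay below its Th0 range. Zbp1 differed by -0.67 ± 0.65 (SE) in Th17 and -1.56 ± 0.70 in Th2 cultures (limma, adjusted p = 0.999 and 0.777).

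Ifit2, an RNA-binding antiviral protein, was at 3.92, 4.43, 4.75 and 3.65 in Th17 cultures and 4.83, 3.38 and 3.92 in Th2 cultures, against 4.68, 4.62 and 5.80 in Th0 cultures. It was below Th0 on 5 of 7 polarised arrays, and differed by -0.84 ± 0.39 and -0.99 ± 0.42 (SE, limma, adjusted p = 0.972 and 0.774). Usp18, which removes ISG15 from proteins and dampens type I signalling, was at 5.10, 5.23, 5.23 and 4.57 in Th17 cultures and 6.20, 4.38 and 3.74 in Th2 cultures, against 5.46, 5.60 and 6.39 in Th0 cultures. All 4 Th17 arrays were below Th0, as were Th2 replicates 2 and 3 but not Th2 replicate 1. Usp18 differed by -0.78 ± 0.48 and -1.04 ± 0.51 (SE, limma, adjusted p = 0.999 and 0.795).

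Rsad2, the antiviral enzyme viperin, was the single gene with all Th2 arrays above Th0, as were 4.48% of all genes. It was at 3.13, 2.92, 3.16 and 3.05 in Th17 cultures and 2.99, 3.04 and 3.25 in Th2 cultures, against 2.92, 2.93 and 2.90 in Th0 cultures. These values lie below the median of every array, which ran from 3.39 to 3.61, as did those of Mx1, a GTPase active against influenza virus, and of Gbp6. The other type I genes had no shared direction. Ifit3 differed by 0.05 in Th17 and 0.31 in Th2 cultures, Isg15, the ubiquitin-like modifier, by -0.025 and -0.04, and Oas2, a sensor of double-stranded RNA, by 0.50 and -0.32. Xaf1, an antagonist of the apoptosis inhibitor XIAP, differed by -0.44 and -1.09, Parp14, an ADP-ribosyltransferase, by -0.16 and -0.77, and Ifit1 by -0.39 and -0.55. Oasl1, Oasl2 and Mx1 stayed between -0.15 and 0.18 in both. Rtp4 had the widest range of the 39 genes, at 7.52 on Th2 replicate 1 and 3.41 on Th2 replicate 3.

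Cxcl10, a chemokine that draws CXCR3-bearing T cells, was at 3.73, 3.08, 3.63 and 3.11 in Th17 cultures and 3.51, 3.72 and 3.33 in Th2 cultures, against 4.19, 3.69 and 3.91 in Th0 cultures. Its groups overlapped, through Th17 replicate 1 and Th2 replicate 2, and it differed by -0.54 ± 0.21 (SE) and -0.41 ± 0.22 (limma, adjusted p = 0.879 and 0.806). Its levels were near the array medians of 3.39 to 3.61. Ido1, which breaks down tryptophan, was at 3.97, 2.98, 3.34 and 3.18 in Th17 cultures and 3.24, 2.95 and 3.17 in Th2 cultures, against 3.34, 3.46 and 3.20 in Th0 cultures. Its highest value was on Th17 replicate 1, the array with the highest average of myeloid markers. That average was raised by S100a8, S100a9 and Lyz2 and not by the other measured myeloid markers. The part of myeloid cells in the Ido1 value was not tested. Ido1 differed by 0.03 ± 0.22 (SE) and -0.21 ± 0.23 (limma, adjusted p = 0.999 and 0.906).

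**Figure D4:**
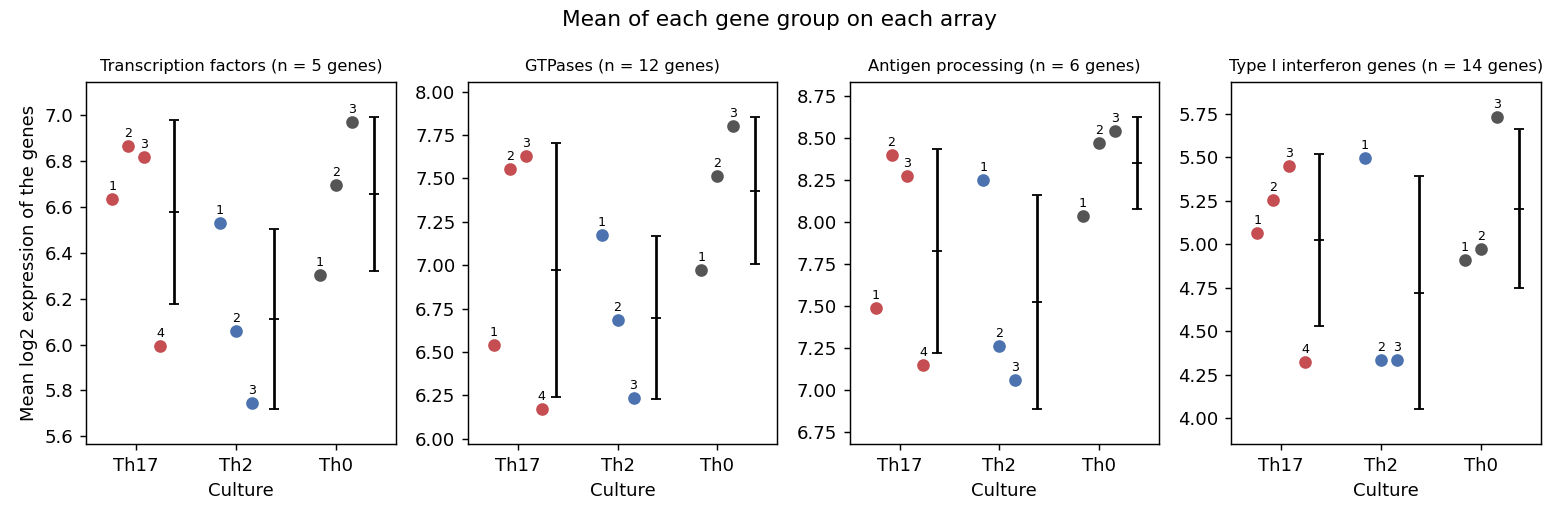
Mean log2 expression of the genes of each group on every array of Th17 (red), Th2 (blue) and Th0 cultures (grey), numbered by replicate, with the mean and SD over arrays in black. Th17 replicate 4 and Th2 replicates 2 and 3 are the lowest 3 points for factors, antigen-processing and type I genes, and among the GTPases Th17 replicate 1 (6.54) lies between them.

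By their averages, the gene groups differed in how far Th17 replicate 1, picked after its values were seen, lay from replicates 2 and 3. The GTPases averaged 6.54 on it, against 7.56 and 7.63 on Th17 replicates 2 and 3, and the antigen-processing genes 7.49, against 8.40 and 8.27. Its factors (6.63, against 6.86 and 6.82) and type I genes (5.07, against 5.26 and 5.45) were closer to theirs. These 2 averages hide single genes. Among factors Stat2, Irf1 and Irf9 were lower on it than on both other arrays, Irf7 lay between and Irf8 was higher. Among type I genes Zbp1, Xaf1, Parp14, Rtp4, Usp18, Ifit2, Ifit3, Oasl1 and Mx1 were lower than on both. Oas2 was higher, and Ifit1, Isg15, Oasl2 and Rsad2 lay between. On Th17 replicate 4 all 4 groups were low, at 5.99 for factors, 6.17 for GTPases, 7.15 for antigen processing and 4.32 for type I genes.

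Within groups the same arrays were extreme for most members: Th17 replicate 4 was the lowest Th17 array for 25 of 39 genes (29.9% of all genes), Th2 replicate 3 the lowest Th2 array for 25 (32.5%) and Th0 replicate 1 the lowest Th0 array for 25 (32.4%). Counted array by array, 29 of the 39 genes lay below all 3 Th0 arrays on Th17 replicate 4, 20 on replicate 1, 8 on replicate 2 and 4 on replicate 3. All genes gave 28.2%, 25.7%, 26.6% and 25.5% on those arrays. On Th2 replicates 1 to 3 the counts were 6, 24 and 27 of 39, against 27.5%, 29.2% and 28.8% of all genes. The count stood above the share for all genes on 4 of the 7 arrays and below it on the other 3. Among genes with a mean of 6 or more the apart arrays were also low in general: 44.1%, 34.5% and 52.3% of 3843 such genes on Th17 replicate 4 and Th2 replicates 2 and 3, beside 20, 17 and 18 of the 24 members. On Th17 replicate 1 the figures were 15 of 24 members and 14.7%. On Th2 replicate 1 they were 4 of 24 and 7.36%, so there the members stood above such genes. On Th17 replicates 2 and 3 they were 3 and 2 of 24, beside 28.3% and 17.7%.

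**Figure D5:**
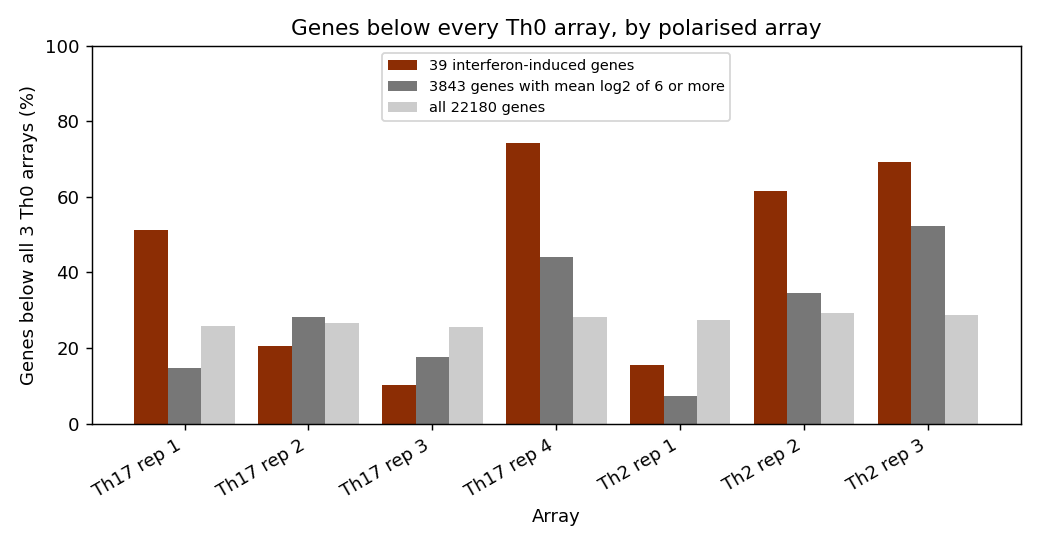
Share of genes below all 3 Th0 arrays (vertical axis, percent) on each Th17 and Th2 array, for the 39 interferon-induced genes (brown), 3843 genes with a mean log2 of 6 or more (dark grey) and all 22180 genes (light grey). The brown bars are tallest on Th17 replicate 4 (29 of 39 genes), Th2 replicate 3 (27) and Th2 replicate 2 (24).

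Ifng itself, the cytokine the antibody binds, had higher means in the polarised cultures. It was at 8.40, 9.93, 9.48 and 10.05 in Th17 cultures and 7.995, 9.50 and 10.31 in Th2 cultures, against 9.07, 7.90 and 6.59 in Th0 cultures. The groups overlapped, and Ifng differed by 1.61 ± 0.64 (SE) in Th17 and 1.41 ± 0.69 in Th2 cultures, neither called (limma, adjusted p = 0.906 and 0.795). Among Th2 and among Th0 arrays the order of Ifng was the reverse of that of the mean over the 39 genes: Th0 replicate 3 had the lowest Ifng, at 6.59, and the highest mean, at 6.85. Among Th17 arrays the order was mixed, and replicate 1 was low in both.

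Ifngr1, the ligand-binding chain of the interferon gamma receptor, was at 7.91, 8.24, 8.11 and 6.38 in Th17 cultures and 8.10, 5.84 and 6.15 in Th2 cultures, against 7.39, 8.34 and 7.98 in Th0 cultures. The 3 arrays low in Ifngr1 were those low in Stat2 and Zbp1. Ifngr1 differed by -0.24 ± 0.56 (SE) in Th17 and -1.21 ± 0.60 in Th2 cultures (limma, adjusted p = 0.999 and 0.796). Ifngr2, the signalling chain, was at 7.36, 6.63, 6.68 and 7.16 in Th17 cultures and 7.48, 5.97 and 5.27 in Th2 cultures, against 6.48, 6.21 and 6.45 in Th0 cultures. Th2 replicates 2 and 3 were again low, and Th17 replicate 4 was not. In all, 81 of 96 other listed genes were measured, and 0 passed in any comparison. They were further genes of the interferon and antigen-processing routes and the 13 constitutive proteasome genes. Of the 81, 64 lay below Th0 with the polarised groups weighted equally, where 52.2% of all genes did, by a median of -0.16. At an unadjusted p under 0.05, 6 were lower and 5 higher, against 2.94% and 2.62% of all genes. The lists within the 81 were unlike: 12 of 13 constitutive proteasome genes lay below Th0. Of the other ligands 5 of 9 did, of the other factors 2 of 5 and of the inhibitors 6 of 6.

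The comparison of Th17 with Th2 cultures, both with the antibody, also tests whether the differences of the polarised groups from Th0 differ from each other. Of the 39 genes 30 were higher in Th17 and 9 lower, by a median of 0.25, where 51.6% of all genes were lower. Leaving out Th17 replicate 2, 3 or 4 gave medians of 0.15, 0.11 and 0.44, and leaving out Th2 replicate 1, 2 or 3 gave 0.52, 0.15 and 0.09. It turned to -0.09 without the 3 arrays apart on the first component. Of the 24 with a mean of 6 or more 5 were lower (49% of such genes). limma called 0 of 39 (0.0766% of all genes), and at an unadjusted p under 0.05 1, Gbp5, was higher and 0 lower (3.18% and 3.07% of all genes). All 5 factors, 9 of 12 GTPases, 5 of 6 antigen-processing genes and 10 of 14 type I genes were higher in Th17. Gbp5, a GTPase that promotes inflammasome activity and named after its values were seen, was at 6.47, 6.45, 6.47 and 6.25 in Th17 cultures, against 6.23, 5.76 and 4.48 in Th2 cultures, and at 6.09, 6.51 and 6.62 in Th0 cultures. All 4 Th17 values were above the Th2 values, as for 2.6% of all genes, with 6.25 and 6.23 the closest pair, and the difference was 0.92 ± 0.33 (SE, limma, adjusted p = 0.672). Stat2 differed most, by 1.27 ± 0.65 (SE, limma, adjusted p = 0.862).

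Calls appeared when Th2 replicate 1 was left out, which leaves the 2 Th2 arrays that stood apart. In Th2 minus Th0, 4 of 39 genes then passed, with 1.94% of all genes: Psmb10 at -2.41, Stat2 at -2.12, Usp18 at -1.76 and Psmb8 at -1.46 (limma, adjusted p from 0.0273 to 0.0492). In Th17 minus Th2 Stat2 passed at 2.19 (adjusted p = 0.0447), with 1.34% of all genes. Without Th17 replicate 4 and Th2 replicates 2 and 3, 25 of the 39 genes lay below Th0 with the polarised groups weighted equally. Of all genes 54.8% did in that setting. Whether the gene groups differ from each other there was not tested. The medians against Th0, with polarised groups weighted equally, were then -0.16 for GTPases (11 of 12 lower), -0.23 for antigen processing (6 of 6), 0.07 for type I genes (5 of 14) and 0.08 for factors (2 of 5). That setting holds a single Th2 array, which is assumed to vary like the other groups, and limma called 0 of 39, with 3 at an unadjusted p under 0.05 (6.08% of all genes). Psmb10 differed there by -0.30 and Stat2 by 0.57.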

How the data were processed

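The deposited values are log2 expression per probe set, which the authors obtained by RMA, with Affymetrix Expression Console 1.3.0.187 named in the submitters' processing notes. RMA removes background, makes the arrays' distributions alike and combines probes. The deposited distributions still differed in width. Their interquartile range was 1.95 on Th2 replicate 3, 2.08 on Th0 replicate 1, 2.09 on Th17 replicate 4 and 2.15 on Th2 replicate 2. On the other arrays it was 2.18 to 2.41. With the arrays quantile normalized again, the median over the 39 genes was -0.48 for the equally weighted groups, -0.59 in Th2 and -0.28 in Th17 cultures against Th0. Per the labels' protocols, RNA was column-purified with DNase, amplified (Ovation PicoSL WTA) and labelled with biotin. RMA compresses differences of weakly expressed genes and hides changes in total RNA per cell. No genome build or harvest time is given in the sources used here. Of 41345 probe sets, 23521 carried 1 symbol in the platform annotation, giving 22180 genes, and no filter on low values was used. Where a gene had several promoter entries, a match in any counted.

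limma 3.58.1 (lmFit, eBayes; R 4.3.3) estimated the 3 group means from all 10 arrays, leaving 7 residual degrees of freedom. The contrasts were the mean of Th17 and Th2 minus Th0, each against Th0, and Th17 minus Th2. Two-sided p-values were adjusted with the Benjamini-Hochberg method over all 22180 genes, and genes were called under 0.05. The fit was run on simulated data with noise independent between genes and arrays. That run does not cover differences shared by many genes on an array, as seen here. Differences are of mean log2 values, ± SE of the moderated fit, and the number of arrays limits the precision.

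Values on every array were given for members with no overlap between groups in a comparison with Th0, and in each gene group for the 3 with the largest polarised minus Th0 difference and the 1 with the highest mean (16 genes). Other members are given by their differences or ranges, and any named beyond this rule was named after its values were seen. The members and lists were chosen with earlier results of these data known. Groups and replicate numbers come from the sample titles; the description of Th2 replicate 3 carries the number 4. The model has no block. The alternatives were other probe sets, filters, normalizations, variance models, blocks and arrays left out.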

Additional observations from a re-analysis of the deposited data

Results flagged for a closer look

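With 4 Th17 arrays, a value was singled out where its gap to the nearest array as a share of the group's range exceeded Dixon's 95% critical value. Chance gives this in about 1 in 20 groups, and 4 of the 39 genes met it, all through a low value on Th17 replicate 4. Oas2 was at 2.85 there, against 5.65 to 5.81 on the other 3 Th17 arrays, and Rtp4 at 3.64, against 6.64 to 7.18. Irf7 was at 4.56, against 5.81 to 5.98. Gbp5 was at 6.25, against 6.45 to 6.47. Th17 replicate 4 is also 1 of the 3 arrays apart on the first principal component, and the part of that in these values was not tested. Groups of 3 arrays were not examined this way.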

How the results depend on the processing

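Under 22 alternatives the count of called members was 0 in each comparison, except without Th2 replicate 1. Over the arrays left out in turn it ran from 0 to 4 in Th2 minus Th0 and from 0 to 1 in Th17 minus Th2. The median difference kept its sign with each array left out: -0.69 to -0.25 with the polarised groups weighted equally, -0.90 to -0.38 in Th2 and -0.42 to -0.10 in Th17 cultures against Th0, and 0.09 to 0.52 for Th17 minus Th2. The Th0 ends of these ranges come from leaving out Th0 replicate 1 or 3, except -0.10 in Th17 minus Th0, which comes from Th17 replicate 4. Without Th2 replicates 2 and 3 and Th17 replicate 4 the median was -0.070 in Th2 minus Th0 and turned to -0.091 in Th17 minus Th2. Without Th0 replicate 1 and Th17 replicates 2 and 3, the arrays highest in basophil markers, it was -0.87 in Th17 minus Th0 and turned to -0.066 in Th17 minus Th2. The cause was not tested.

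The replicate numbers were not taken as pairing the samples, since not every same-numbered pair deviated together. Deviations from group means correlated at -0.31 to 0.30 for pairs with the same number in the title. By the description, Th2 replicate 3 and Th17 replicate 4 share number 4 and correlated at 0.494, the highest of all pairs, while the other pairs ran from -0.29 to 0.30. With the title's number as a block the medians were -0.34 (polarised minus Th0), -0.59 (Th2), -0.10 (Th17) and 0.44 (Th17 minus Th2). With the description's number as a block they were -0.15, -0.21, -0.15 and 0.08. No member was called with either. With the description's number, members at an unadjusted limma p under 0.05 numbered 0 in polarised minus Th0 and 1 in Th2 minus Th0. Of all 22180 genes 1221 and 1245 were under it there. Without a block the members numbered 6 and 8, and all genes 1232 and 1407.

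Of 1187 values of single genes under alternatives 22 turned sign, none of them called. Without Th2 replicates 2 and 3 and Th17 replicate 4 these were Stat2 (0.57 polarised minus Th0, 0.65 Th2 minus Th0, -0.17 Th17 minus Th2), Usp18 (0.38, Th2 minus Th0), Ido1 (0.00253, polarised minus Th0) and Ifngr1 (0.19 polarised, 0.19 Th2 and 0.18 Th17 minus Th0). Ifngr1 in Th17 minus Th0 was also 0.18 with the title block and 0.084 with the description block, and -0.50 to 0.18 with arrays left out in turn. Without the basophil-high arrays Stat2 was -0.68 and Irf8 0.26 in Th17 minus Th0, and Ido1 0.020 polarised minus Th0. In Th17 minus Th0 the mean over probe sets gave Irf8 0.019, and leaving out single arrays gave Stat2 -0.21 to 0.48, Irf1 -0.65 to 0.0099 and Ido1 -0.17 to 0.17. Irf8 was -0.99 to 0.11 in Th2 minus Th0, above 0 without Th2 replicate 1. Polarised minus Th0 uses all groups, so a fit on only the groups compared gave no further value there. Gbp6, Mx1 and Rsad2 lay below the median of every array, so a lower level of these 3 could hardly be measured.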
